A study of Mus musculus with 2 samples.

Results

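The nuclear genes for aminoacyl-tRNA synthetases were examined for GABPα binding in CD4+ T cells of wild-type C57BL/6 mice. Members were the GENCODE M21 protein-coding genes whose symbol is a capital letter followed by ars, with or without a final digit, together with Eprs, Farsa, Farsb, Tarsl2, Aimp1 and Aimp2. This gave 40 of 21951 protein-coding genes, of which 21 encode cytosolic enzymes, 17 encode mitochondrial enzymes (symbols such as Aars2) and 2 encode scaffold proteins. The cells were taken with magnetic beads, and chromatin immunoprecipitation with an antibody to GABPα gave 1 library, set against 1 library of input DNA from the same kind of cells without antibody. The labels give no age or sex of the mice and do not say whether animals were pooled. What was deposited is a list of 6782 intervals called as enriched over input. It holds positions with an empty score, so the depth of the libraries is unknown, and it gives no height, fold enrichment or q value for an interval. With 1 ChIP library there are no replicates, no test was made between groups of genes, and the values describe that library. A list of positions holds no expression, so the labelled cell type could not be checked against marker genes.

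Aminoacyl-tRNA synthetases join each amino acid to its own tRNA, which is how the genetic code is read during translation. The cytosol and the mitochondrion use largely separate sets of these enzymes, and both sets are encoded in the nucleus. Gars and Kars, for glycine and lysine, serve both compartments from the same gene and are counted here as cytosolic. Glutamine is attached in mitochondria by an indirect route that starts with Ears2. In the cytosol several synthetases are held together with the scaffold proteins Aimp1, Aimp2 and Eef1e1 in the multisynthetase complex. GABPα is the DNA-binding subunit of the Ets family factor GABP, recognises sequences with a GGAA core, and is known for binding promoters of nuclear genes for mitochondrial proteins.

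Of the 40 genes, 21 had an interval no farther than 1000 bp from the start of some transcript (52.5%, 95% Wilson interval 37.5 to 67.1), while 17.7% of all protein-coding genes had an interval by the same rule. Among cytosolic synthetases 12 of 21 had an interval (57.1%, 36.5 to 75.5), and among mitochondrial synthetases 7 of 17 did (41.2%, 21.6 to 64.0). The mitochondrial share was 16.0 percentage points below the cytosolic share as counted, but the 95% interval of the mitochondrial minus cytosolic difference ran from -42.8 to 14.8 points and included 0. Both scaffold genes of the list had an interval. These intervals cover counting error only. Each of the lower bounds for the cytosolic and mitochondrial shares lay above the 17.7% of all protein-coding genes. For the mitochondrial share this depended on how shared sites were counted. With each interval counted only for the gene whose start is nearest its middle, the mitochondrial share was 29.4% (13.3 to 53.1). The cytosolic share was then 52.4% (32.4 to 71.7). Of all protein-coding genes 14.4% had an interval by that count, above the mitochondrial lower bound and below the cytosolic.

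The rule's limit of 1000 bp fell in a wide gap. In 17 of the 40 genes an interval covered a transcript start, and the interval farthest from a start among those counted was 392 bp away, at Dars. The nearest interval of a gene not counted was 5299 bp away, at Aars. Of the 19 genes without an interval, 17 had their nearest interval more than 10000 bp away.

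**Figure D1:**
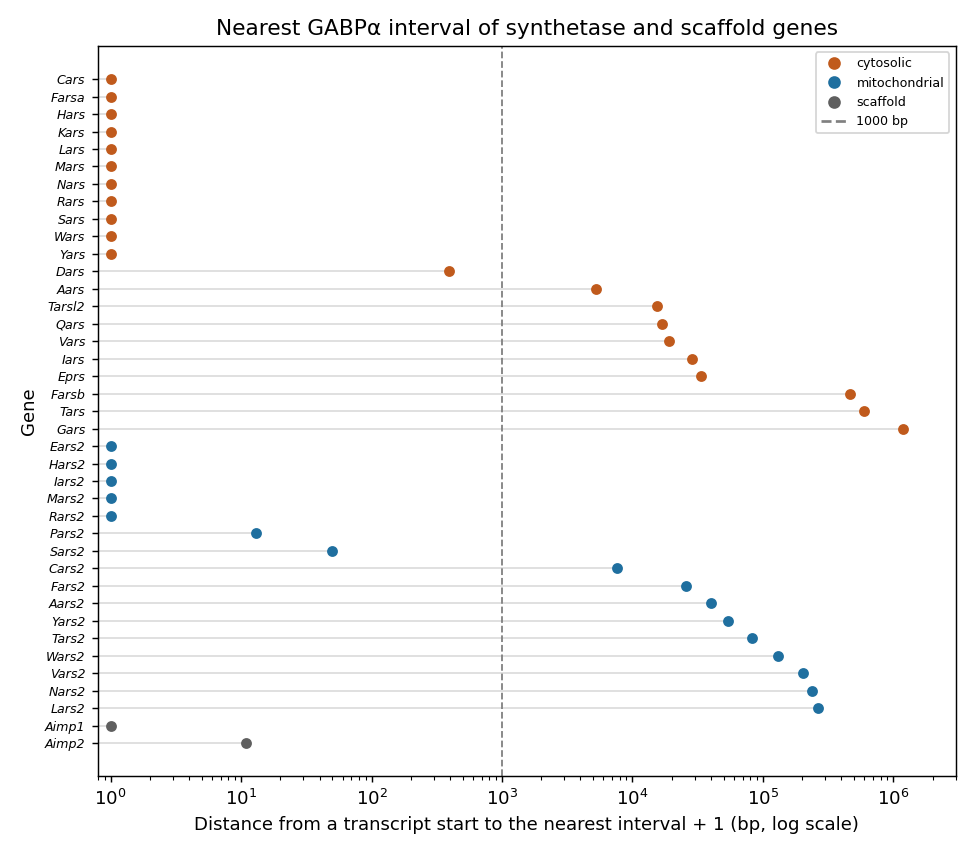
Distance from the nearest transcript start to the nearest GABPα interval for the synthetase and scaffold genes, plotted as the distance plus 1 bp on a log scale, with the genes grouped by compartment and the limit of 1000 bp dashed. Genes with an interval lie at 0 to 392 bp and the others at 5299 bp or more, with no gene between.

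Sequences at the sites are shown to let the motif be seen in its setting. CCGGAAG, the GABP motif counted here on both strands, was in 18 of the 21 distinct intervals near these genes. Each run below is from mm10 (GRCm38.p6), reads 5′ to 3′ on the strand given, and has in capitals the copy nearest the middle of the interval with 10 bases on either side. Leaving out the interval shared by Hars and Hars2, which ranks next after Wars and after Ears2 in width and is not printed, the widest intervals with the motif are those of the cytosolic genes Wars, Cars and Mars and the mitochondrial genes Ears2, Mars2 and Rars2. Dars is shown as the site farthest from a start. Yars and Iars2 are shown as the widest intervals of each compartment without CCGGAAG, with their nearest GGAA or CGGAAG in capitals.
Wars (chr12:108894154-108894180, minus strand): catgccgagaCCGGAAGttattccagc
Cars (chr7:143600087-143600113, minus strand): ctggacatgcCCGGAAGacgactggtg
Mars (chr10:127311799-127311825, plus strand): ccaacgagacCCGGAAGttgacggtgc
Ears2 (chr7:122066811-122066837, plus strand): gcagacaaccCCGGAAGggactgtttc
Mars2 (chr1:55237144-55237170, plus strand): ggcttccgcgCCGGAAGcggcggtacc
Rars2 (chr4:34614943-34614969, minus strand): cgcctccgcgCCGGAAGtcgcctctgc
Dars (chr1:128416866-128416892, minus strand): gctcgcggaaCCGGAAGtagctgcggc
Yars (chr4:129189776-129189799, minus strand): aggaaggggcGGAAccatccaaaa
Iars2 (chr1:185329391-185329416, plus strand): cgctccggggCGGAAGgggcggggca

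In the 18 intervals with CCGGAAG, the median distance from the middle to its nearest copy was 13.5 bp, and in 13 of them it was within 30 bp. The exception at the far end was the wide interval of Ears2, where the copy was 153 bp from the middle. Taking the copy nearest the middle favours short distances. No such distance is given here for other intervals near coding starts, so it is not shown to be particular to these genes. Counting the shared interval of Hars and Hars2 for each gene, 7 of these copies were on the strand of the gene and 12 on the other strand. Of the sequences shown, Rars2 had its motif centred 1 bp upstream of the gene start and 1 bp from the middle of the interval. At Wars it was centred 7 bp inside the gene, at Cars 10 bp upstream of the start, and at Mars2 20 bp upstream.

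Among the cytosolic genes, 11 of the 12 with an interval had it over the annotated gene start. A place over a start was common to promoter intervals. It was seen in 80.2% of the 3459 intervals within 1000 bp of any protein-coding start. Of the 21 distinct intervals near these genes, 16 covered a transcript start of a member (76.2%). Wars, for tryptophan, had the widest of them, 323 bp on chromosome 12 from 108894067 to 108894389, reaching from 215 bp upstream of the gene start to 107 bp inside the gene. Cars, for cysteine, had an interval of 292 bp on chromosome 7 from 143599945 to 143600236, with its middle 0.5 bp from the start and 2 copies of CCGGAAG. At Mars, for methionine, 256 bp on chromosome 10 from 127311661 to 127311916 were covered, and the middle was 2.5 bp upstream of the start. These 3 intervals had their middles at most 54 bp from the gene start.

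The next cytosolic intervals had widths between 201 and 240 bp. Farsa, which encodes a subunit of the phenylalanine enzyme, had 240 bp on chromosome 8 from 84856838 to 84857077. Rars, for arginine, had 228 bp on chromosome 11 from 35834431 to 35834658. Yars, for tyrosine, had 225 bp on chromosome 4 from 129189667 to 129189891. All of these covered the gene start, and the Yars interval was the only cytosolic interval without CCGGAAG, with 4 GGAA cores. Kars, which serves both compartments, had 201 bp on chromosome 8 from 112011246 to 112011446, with the motif centred 34 bp upstream of the start. Nars, for asparagine, had 237 bp on chromosome 18 from 64516513 to 64516749. Its middle was 21 bp inside the gene, in the 5′ UTR.

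The narrower cytosolic intervals were at Dars, Lars and Sars. Dars, for aspartate, had 183 bp on chromosome 1 from 128416785 to 128416967, and it was the only cytosolic interval that missed every annotated start of its gene. It lay 401 to 583 bp inside the gene, with its middle in an intron. Lars, for leucine, had 164 bp on chromosome 18 from 42262161 to 42262324, with the middle 48.5 bp upstream of the start. The interval of Sars, for serine, was the narrowest at 148 bp, on chromosome 3 from 108445202 to 108445349, and reached only 7 bp into the gene. Hars, for histidine, shared an interval of 301 bp with its mitochondrial counterpart, described with the mitochondrial genes.

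No interval was within 1000 bp of a start of Aars, Eprs, Farsb, Gars, Iars, Qars, Tars, Tarsl2 or Vars. Their nearest intervals were at a median of 28886 bp, from 5299 bp at Aars to 1183516 bp at Gars. At Qars, for glutamine, it was 16730 bp away and at Vars, for valine, 19003 bp. The nearest interval of Eprs, a fused enzyme for glutamate and proline, was 33536 bp upstream and is the interval of Iars2. Farsa and Farsb encode the subunits that together form the cytosolic phenylalanine enzyme. An interval covered the start of Farsa, while the nearest to Farsb was 463738 bp away, 104 bp wide and wholly soft-masked as repeat in the reference. Tars and Tarsl2, both for threonine, had their nearest intervals 596287 and 15326 bp away. The list holds intervals past the authors' cutoff, so weaker enrichment at these genes would not appear in it.

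The 7 mitochondrial genes with an interval had 8 intervals, of which 5 covered a transcript start and 3 the annotated gene start. Intervals near any protein-coding start covered a transcript start in 80.2% of cases. Mars2, for methionine, had 273 bp on chromosome 1 from 55236989 to 55237261, from 188 bp upstream of the start to 84 bp inside the gene. Rars2, for arginine, had 265 bp on chromosome 4 from 34614823 to 34615087, with the middle 2 bp upstream of the start. Iars2, for isoleucine, had 183 bp on chromosome 1 from 185329326 to 185329508. These are the intervals that covered the gene start, and the last held 1 CGGAAG and no CCGGAAG.

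Pars2 and Sars2 had intervals that ended short of the gene. At Pars2, for proline, 200 bp on chromosome 4 from 106650858 to 106651057 ended 12 bp before the start, and the motif was centred 139 bp upstream. At Sars2, for serine, 136 bp on chromosome 7 from 28741808 to 28741943 ended 49 bp before it, and the motif was centred 175 bp upstream. Ears2, for glutamate, had a pair of intervals with its gene start between them. The wide interval was 375 bp on chromosome 7 from 122066790 to 122067164, inside the gene with its middle in a coding exon, and covered the start of other Ears2 transcripts. The narrow interval was 121 bp from 122067315 to 122067435, upstream of the gene, and held 2 GGAA cores but no CGGAAG.

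Hars2 and Hars, the mitochondrial and cytosolic histidine enzymes, lie on opposite strands. Their closest transcript starts are 26 bp apart, while the annotated gene starts are 197 bp apart and the genes overlap between them. Both had the same interval of 301 bp on chromosome 18 from 36783032 to 36783332, which held 2 copies of CCGGAAG. It covered the gene start of Hars, with its middle 23 bp inside that gene. Of Hars2 it covered starts of other annotated transcripts and began 24 bp inside the gene. The interval is counted for both genes, and its positions do not tell them apart.

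**Figure D2:**
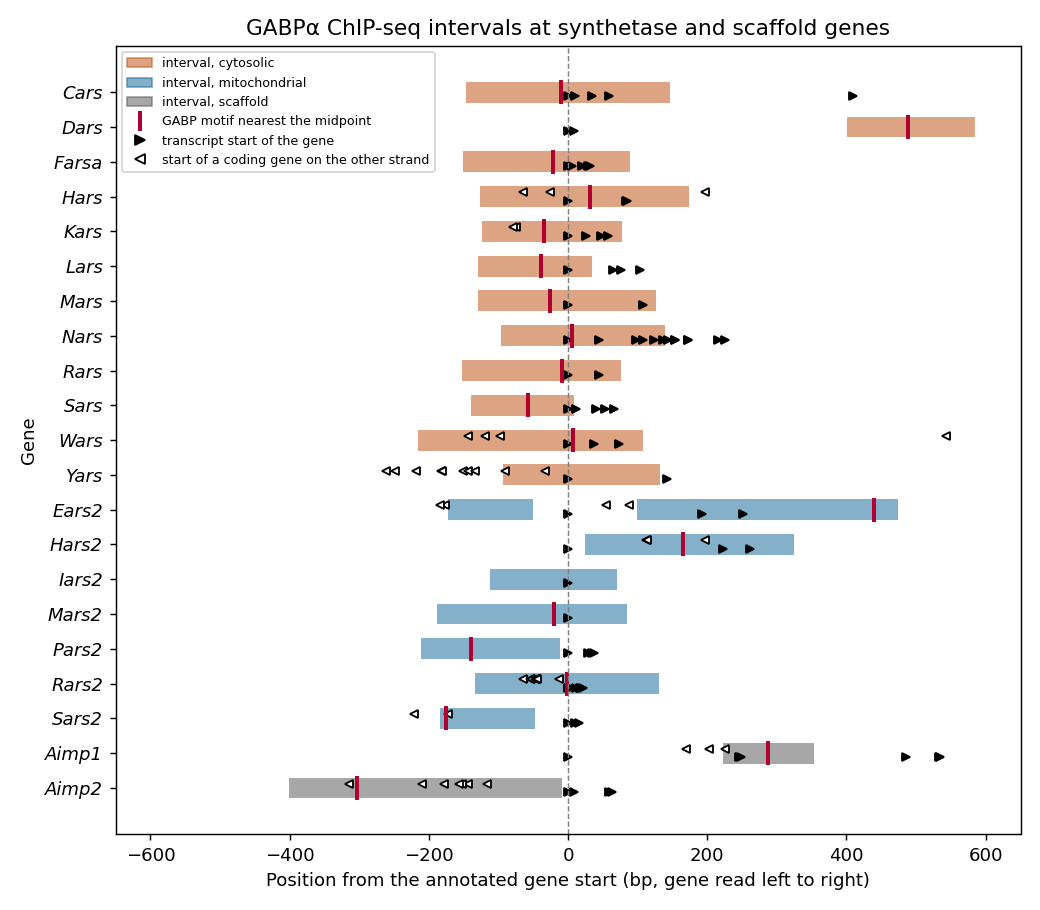
Intervals at the 21 genes with an interval, drawn in bp from the annotated gene start with each gene read left to right. Bars are intervals, coloured by compartment, red ticks the copy of the GABP motif nearest the middle, filled arrowheads the transcript starts of the gene and open arrowheads the starts of a coding gene on the other strand. Most cytosolic bars lie over the gene start, Dars lies 401 to 583 bp inside the gene, and Pars2, Sars2 and Aimp2 end before it.

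Among the mitochondrial synthetases without an interval were Aars2, Cars2, Fars2, Lars2, Nars2, Tars2, Vars2, Wars2 and Yars2. The nearest intervals of the mitochondrial genes without one were at a median of 68612 bp, from 7573 bp at Cars2 to 262668 bp at Lars2. At Fars2, for phenylalanine, the nearest was 25771 bp from a transcript start, lay inside the gene and was wholly soft-masked. Aars2 and Yars2, for alanine and tyrosine, had theirs 39947 and 53932 bp away. Nars2 and Wars2, for asparagine and tryptophan, had nearest intervals that were 236280 and 131486 bp away and wholly soft-masked. Tars2 and Vars2, for threonine and valine, were 83292 and 202691 bp from theirs.

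For 17 amino acids both a cytosolic and a mitochondrial enzyme gene were among the members, with Farsa and Farsb joined, Tars and Tarsl2 joined, and Eprs counted for glutamate and for proline. Histidine, methionine, arginine and serine, 4 of the 17, had an interval at the genes of both compartments. The cytosolic gene alone had an interval for 7, among them cysteine, phenylalanine, leucine, asparagine, tryptophan and tyrosine. The mitochondrial gene alone had it for 3, glutamate, isoleucine and proline. Alanine, threonine and valine, the other 3, had an interval at neither. These counts were not set against the number of such pairs that the separate shares of the compartments would give. Joining genes and counting Eprs for both amino acids also enter them.

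In the multisynthetase complex, 5 of the 8 synthetase genes had an interval (62.5%, 30.6 to 86.3): Dars, Kars, Lars, Mars and Rars. Eprs, Iars and Qars, the others, had none. Of the 13 cytosolic synthetases outside the complex 7 had an interval (53.8%, 29.1 to 76.8), so the shares differed by less than their counting error. At the scaffold gene Aimp1 the interval was 131 bp on chromosome 3 from 132684017 to 132684147, 223 to 353 bp inside the gene as annotated. It covered starts of other Aimp1 transcripts. Aimp2 had the widest interval of all these genes, 392 bp on chromosome 5 from 143909857 to 143910248, which ended 10 bp before the gene start and held 2 copies of CCGGAAG. The third scaffold gene, Eef1e1, had an interval of 122 bp over a start, on chromosome 13 from 38659010 to 38659131, with 1 GGAA core and no CGGAAG. By the structural classes of the catalytic domain, with Eprs left out since it holds both, class I genes had an interval in 6 of 9 cytosolic and 4 of 9 mitochondrial cases, and class II genes in 6 of 11 and 3 of 8. The cytosolic count was the higher in each class as a share.

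Many of the sites were shared with a neighbouring promoter. Of the 40 genes, 12 had a protein-coding gene with a start on the other strand within 1000 bp, and 10 of these 12 had an interval (83.3%, 55.2 to 95.3). Among all protein-coding genes with such a partner 47.2% had an interval. Members without a coding partner had an interval in 11 of 28 cases (39.3%, 23.6 to 57.6), against 13.5% of all protein-coding genes without one. Hars and Hars2 are partners of each other. Kars was paired with Terf2ip, Wars with Wdr25, Yars with S100pbp, Rars2 with Orc3, Sars2 with Mrps12, Ears2 with Ubfd1, Aimp1 with Tbck and Aimp2 with Pms2. Fars2, paired with Lyrm4, had a partner and no interval.

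The interval did not always lie closest to the synthetase. In 8 of the 21 distinct intervals a start of another coding gene was covered. The middle of the Aimp2 interval was 4.5 bp from a start of Pms2, a mismatch repair gene, and 205.5 bp from the nearest start of Aimp2. At Sars2 it was 55.5 bp from a start of Mrps12, which encodes a mitochondrial ribosomal protein, and 116.5 bp from that of Sars2. The Wars interval was 44 bp from a start of Wdr25 and 54 bp from that of Wars. The middle of the narrow Ears2 interval was 65 bp from a start of Ubfd1 and 112 bp from that of Ears2. Between Hars and Hars2 the nearer start was that of Hars. Counting an interval only for the gene whose start is nearest its middle left 11 cytosolic and 5 mitochondrial genes, without Wars, Hars2 and Sars2 and without the scaffold gene Aimp2, and 14.4% of all protein-coding genes. The rest of the genes with a partner and an interval, such as Rars2 with its start 2 bp and that of Orc3 11 bp from the middle, were still counted.

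The motif in the promoter, read without regard to the intervals, was compared next. The window from 250 bp upstream to 50 bp downstream of the annotated gene start held CCGGAAG in 18 of the 40 genes (45.0%) and in 10.8% of 21938 nuclear protein-coding genes. It was in 12 of 21 cytosolic windows (57.1%) and 5 of 17 mitochondrial windows (29.4%). Of the 18 genes with the motif 16 had an interval (88.9%, 67.2 to 96.9), and 68.5% of all protein-coding genes with it did. Of the 22 without the motif 5 had an interval (22.7%, 10.1 to 43.4), against 11.6% of all such genes. These were Dars, Ears2, Hars2, Iars2 and Aimp1. A coding partner was present at 10 of the 21 genes with an interval and 2 of the 19 without. Genes with and without an interval had a median GC content of 57.3% and 57.0% in this window and a median of 6 and 7 annotated transcripts.

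A CpG-rich window, with at least 50% GC and an observed to expected CpG ratio of at least 0.6, is typical of promoters active in many tissues. It was found at 32 of the 40 genes, 15 of them cytosolic and 16 mitochondrial, and at 41.3% of all protein-coding genes. Among genes with an interval 18 of 21 had such a start, and among those without 14 of 19. An interval was present at 18 of these 32 (56.2%, 39.3 to 71.8), and at 31.5% of all protein-coding genes with a CpG-rich start. In the cytosolic set it was 10 of 15 (66.7%, 41.7 to 84.8) and in the mitochondrial set 7 of 16 (43.8%, 23.1 to 66.8). The 95% interval of the mitochondrial share included the value of all CpG-rich genes, and that of the cytosolic share did not. The cytosolic and mitochondrial intervals overlapped, so these values do not separate the compartments.

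**Figure D3:**
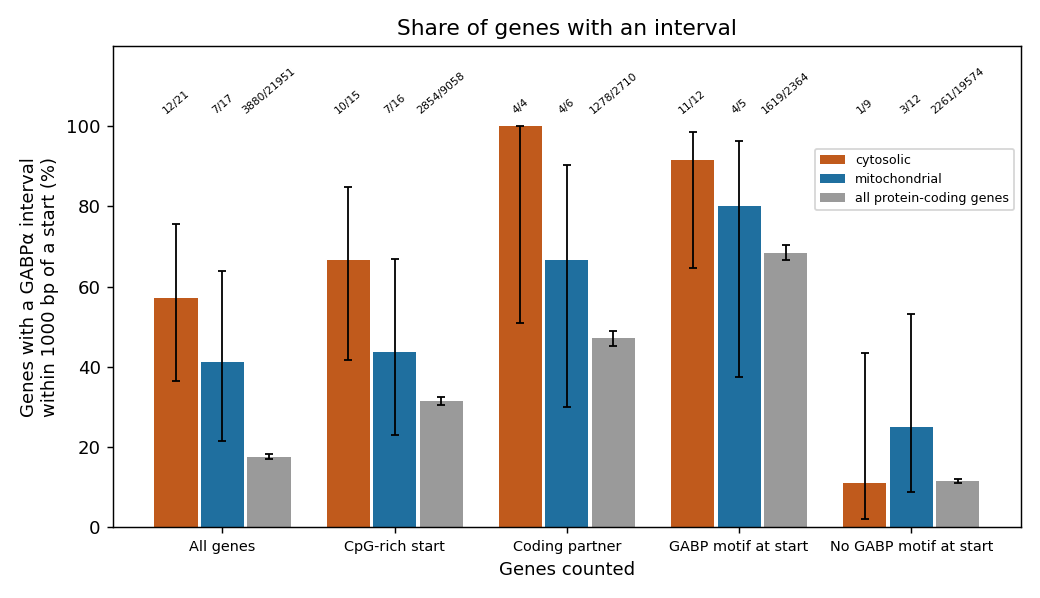
Percentage of genes with a GABPα interval within 1000 bp of a transcript start for cytosolic synthetases, mitochondrial synthetases and all protein-coding genes, for all genes and for those with the start property named on the horizontal axis, with the counts above the bars and 95% Wilson intervals as error bars. The GABP motif is CCGGAAG in the window from 250 bp upstream to 50 bp downstream. Where it is present, 11 of 12 cytosolic, 4 of 5 mitochondrial and 1619 of 2364 of all genes have an interval, and where it is absent, 1 of 9, 3 of 12 and 2261 of 19574 do.

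Other short sequences known from promoters of such genes were counted in the same windows on both strands. GCGCATGC, from the motif of the nuclear respiratory factor NRF1, was in Rars2, Vars2 and Wars2, 3 of 17 mitochondrial genes (17.6%), in 0 of 21 cytosolic genes and in 3.71% of all genes. AAGATGGCG, from the motif of YY1, was in Aars2, Wars2 and Yars2 and in the cytosolic gene Farsa, against 1.70% of all genes. TGATGNAA, from the element bound by ATF4 with C/EBP factors in the response to amino acid shortage, was in the cytosolic genes Cars, Gars, Iars and Tars, 4 of 21 (19.0%), in 0 of 17 mitochondrial genes and in 3.84% of all genes. Among the genes holding at least 1 of these 3 sequences in the window, Rars2, Farsa and Cars had a GABPα interval and the others did not. The matching share for all protein-coding genes with these sequences is not given here, and the counts are small. Whether the sequences and the intervals avoid each other was not tested. The interval of Nars held 1 TGATGNAA that was not within its window. The letters say nothing of whether the factors were bound.

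Width was the property of an interval that could be compared. The median width of the 21 distinct intervals was 228 bp, from 121 to 392 bp, and the 3459 intervals within 1000 bp of any protein-coding start had a median of 210 bp with quartiles of 159 and 267 bp. Cytosolic and mitochondrial intervals had the same median of 232.5 bp, with ranges of 148 to 323 bp and 121 to 375 bp. The interval shared by Hars and Hars2 is in both sets. Wars was as wide as or wider than 89.9% of the intervals near coding starts, the wide interval of Ears2 94.7% and that of Aimp2 95.7%. At the other end were Sars with 20.5%, Sars2 with 15.2% and the narrow interval of Ears2 with 9.16%. The synthetase sites were thus spread over the common range of widths.

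**Figure D4:**
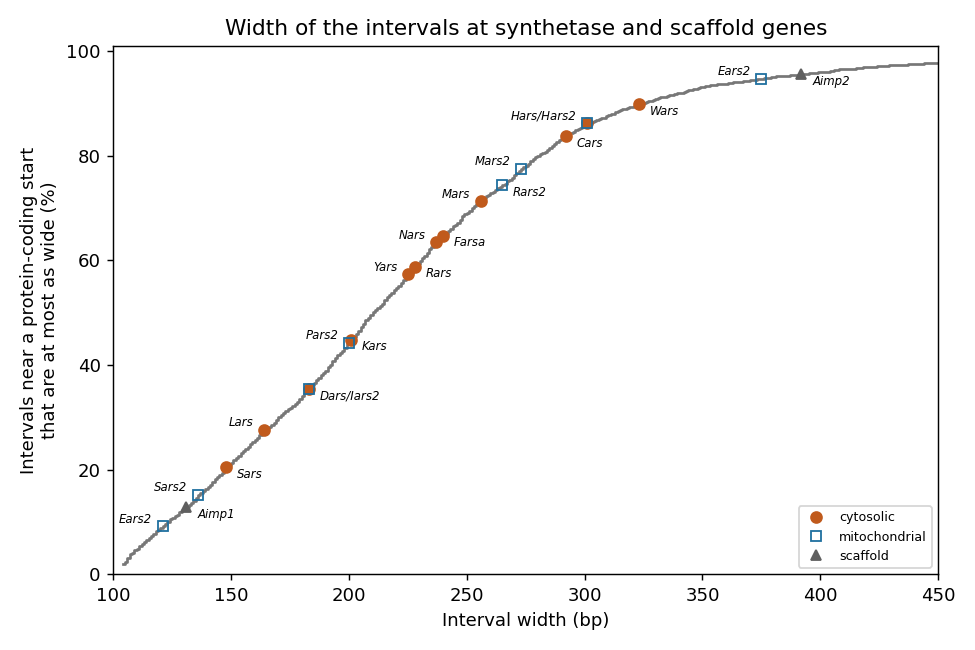
Width of each interval at the synthetase and scaffold genes in bp (points, by compartment) on the cumulative distribution of the 3459 intervals near a protein-coding start (grey line), whose height is the percentage of these intervals that are at most as wide. The points run from the 121 bp of the narrow Ears2 interval to the 392 bp of Aimp2 and follow most of the curve.

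CCGGAAG was in 18 of the 21 intervals (85.7%, 65.4 to 95.0) and in 1979 of the 3459 near any protein-coding start (57.2%, 55.6 to 58.9). With the interval shared by Hars and Hars2 counted in both compartments, it was in 11 of 12 cytosolic intervals, 6 of 8 mitochondrial intervals and both scaffold intervals. Since wide intervals can hold more sequence, the share was also read by width. Over 250 bp it was in 8 of 8 intervals near these genes and 72.7% near any coding start, from over 150 to 250 bp in 7 of 9 and 56.8%, and up to 150 bp in 3 of 4 and 35.7%. The synthetase intervals were above the wider set in each width group, on small counts. GGAA alone was in all 21 and in 98.8% of the wider set.

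Sites near these genes held little repeat sequence, as did most sites near coding genes. Soft-masked bases made up 50% or more of the interval in 39.8% of the whole list, in 1.73% of the 3459 near a protein-coding start and in 0 of the 21, 13 had no soft-masked base, and the highest share was 23.1%, at Yars. All 36-base sequences of all 21 intervals, the length of the reads, occurred only 1 time in the 21 chromosomes on either strand, so none of these intervals rests on sequence that is repeated exactly at read length.

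Genes that work beside the synthetases were counted with the same rule, in lists that were chosen with results of these data known. Beside these counts stands the 17.7% of all protein-coding genes. Among 11 charging partners, 4 had an interval (36.4%, 15.2 to 64.6), a range that includes the share of all genes. They were Eef1e1, Gatb, Qrsl1 and Prorsd1. Gatb, Gatc and Qrsl1 encode the amidotransferase that completes glutamine charging in mitochondria after Ears2. Gatb had an interval of 282 bp over a start with CCGGAAG, Qrsl1 had 128 bp that lay 534 bp from a start and were wholly soft-masked, and Gatc had none. Aarsd1, Dtd1, Dtd2, Mtfmt, Pstk and Sepsecs, which proofread or further modify charged tRNA, had no interval.

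Elongation factors, which carry charged tRNA to the ribosome or reload such carriers, had an interval in 4 of 7 cases (57.1%, 25 to 84.2). The mitochondrial factor Tufm had 311 bp with CCGGAAG, and the cytosolic Eef1b2 had 455 bp with it. Eef1a1 and Eef1g had intervals of 107 and 146 bp without CCGGAAG, and Eef1a2, Eef1d and Tsfm had none. Of the genes for modification of mitochondrial tRNA, 7 of 11 matched had an interval (63.6%, 35.4 to 84.8): Alkbh1, Cdk5rap1, Gtpbp3, Nsun3, Osgepl1, Trmu and Yrdc. Mto1, Pus1, Trit1 and Trmt5 did not, and Trmt61b was not matched. In the processing of tRNA ends 7 of 15 had one (46.7%, 24.8 to 69.9), and the widest was the 503 bp at Trmt10c, a subunit of the mitochondrial RNase P. The others were Elac1, Elac2, Pop5, Rpp14, Rpp21 and Trnt1.

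For scale, mitochondrial ribosomal protein genes had an interval in 48 of 78 cases (61.5%, 50.4 to 71.6), and translation initiation factor genes in 30 of 55 (54.5%, 41.5 to 67.0). The mitochondrial synthetases at 41.2% and the cytosolic synthetases at 57.1% had 95% intervals that overlapped those of both families.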

How the data were processed

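Per the methods of the paper, the authors trimmed 36-bp single-end reads with Trimmomatic (bases under quality 20 removed, reads under 30 bases discarded), aligned them to mm10 with Bowtie and used MACS2 to call enriched intervals (q value cutoff 0.01). Versions and the handling of reads with several matches are not given in the sources used here. The deposited file gives the start and end of each interval and an empty score column, so depth is unknown. Starts were taken as 0-based and are printed 1-based.

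Distances ran from an interval's nearest edge to the starts of all transcripts of a gene in GENCODE M21, on GRCm38.p6. Gars, Kars and Tarsl2 were counted as cytosolic. With Gars and Kars left out, 11 of 19 cytosolic genes had an interval (57.9%). The mitochondrial minus cytosolic difference was then -16.7 points (-44.0 to 14.7). Motifs were exact matches on both strands, and GGAA is part of CGGAAG, which is part of CCGGAAG. Wilson intervals came from scipy, and that of the difference of shares was Newcombe's, which takes the groups as independent although Hars and Hars2 share an interval. The members and lists were chosen with earlier results of these data known. Members are named apart from 1 that is not reported here by name and is left out of the plot of distances, and printed sequences followed a rule on width and compartment, with Hars, Hars2, Lars and Nars left out of it. Gars, Cars2 and the upstream copy of Yars were added after their values were seen. The scripts were tested on simulated data. Tools were Python 3.11.15, pysam 0.24.0 and scipy 1.17.1.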

Additional observations from a re-analysis of the deposited data

How the results depend on the processing

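Of 44 recomputed values under other settings, 43 moved by less than 1.5 times (counts) or stayed within the 95% interval of the reported value. The exception was the share of intervals with the motif, which rose from 85.7% to 100% when GGAA replaced CCGGAAG. The cytosolic count ran from 11 to 12 and the mitochondrial count from 5 to 7. The mitochondrial share was below the cytosolic in 10 of 10 alternatives, with a difference of -23.0 to -11.2 points and a 95% interval that included 0 in each. These alternatives reuse the same library and are not independent. A limit of 5000 bp, starts of protein-coding transcripts only and annotated gene starts only each gave the same members as the main rule. So did interval middles and intervals with under 50% soft-masked bases only. Dars was lost with a distance of 250 bp. Aimp1, Sars and Sars2 were lost when intervals under the median width of the list were left out. Counting an interval only for the gene with the nearest start, an alternative chosen after seeing the data, lost Aimp2, Hars2, Sars2 and Wars. Under it the lower bound of the mitochondrial share, 13.3%, lay below the 14.4% of all protein-coding genes. No paired analysis was possible because there is 1 ChIP library. Depth is unknown, so a gene without an interval may still be bound below the authors' cutoff.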

Other observations

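Promoter copies of CCGGAAG outside every interval were found at 3 of the 40 genes, picked out after their values were seen. The runs below are from mm10 (GRCm38.p6), read 5′ to 3′ on the strand given, with the motif in capitals.
Gars (chr6:55037865-55037891, minus strand): ggcagagaacCCGGAAGggcaccaact
Cars2 (chr8:11550773-11550799, plus strand): ccgcccactcCCGGAAGaggctacact
Yars (chr4:129189534-129189560, plus strand): ctcttcacctCCGGAAGccgggccaaa
The copy at Cars2, for cysteine in mitochondria, was centred 3 bp upstream of the gene start, and the nearest interval was 7573 bp away. The copy at Gars was centred 129 bp upstream, and the nearest interval was 1183516 bp away, the farthest of the 40 genes. At Yars the copy was centred 213 bp upstream, while the interval of the gene reached from 93 bp upstream to 131 bp inside the gene and held none. Among all protein-coding genes, 745 of the 2364 with the motif in the window from 250 bp upstream to 50 bp downstream of the gene start had no interval within 1000 bp of a start. The matching count among these genes is 2 of 18, Gars and Cars2, since Yars had an interval.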
